A study of Lithobates clamitans with 20 samples.

Results

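The heat response of the gut transcriptome was described in depleted tadpoles of the green frog, Lithobates clamitans, that is in tadpoles raised in autoclaved pond water so that their gut microbiome was of low diversity. The comparison rests on 10 of the 20 tadpoles of the study, chosen by their animal codes: 5 whose codes start with D32 (warm, moved to 32°C for 24 h) and 5 whose codes start with D22 (cool, kept at 22°C). The other 10 tadpoles, raised with unsterilized pond water, are the colonized ones. Each tadpole gave 1 library from its gut, and all came from the eggs of a single pair of frogs and were fed the same diet, so that nothing here speaks for other families. Warm and cool tadpoles stood in different environmental chambers, and the chamber and its temperature cannot be told apart. The treatment fields of the sample records disagree with the codes: they agree for the D32 tadpoles, but list the D22 tadpoles as warm and colonized. By those fields the same 10 tadpoles would all be warm and would differ in colonization, and the comparison below holds as one of heat only if the codes are right. Grouped by the fields, the warm and the cool depleted tadpoles are those with codes D32 and C32, and between these edgeR's quasi-likelihood test called 0 genes, with 623 at an unadjusted p under 0.05, 139 called by DESeq2, 7 by edgeR's exact test, 8 by its likelihood ratio test and 0 by limma voom.

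Frogs and their tadpoles are ectotherms, so the temperature of the water sets that of every tissue. Heat above the usual range unfolds proteins and speeds up metabolism, and cells commonly answer with changes in the transcription of many genes at the same time. The gut lining digests and absorbs food and borders on the microbes, and a gut holds epithelial, muscle, immune and other cells whose RNA is measured here as a mixture. Sequencing divides a fixed number of reads among all transcripts of a library, so that a count tells the share of a transcript and not its number of molecules. A scaling factor is needed to compare libraries in which the most abundant transcripts take up different shares of the reads. The table lists genes by identifiers of the American bullfrog genome, which are not paired with gene names in the sources used here, so that heat shock proteins, the markers of gut cell types and other lists by name were not analysed and the labelled tissue was not checked against its markers.

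Between 17232256 and 22922461 reads were counted per depleted tadpole, and the totals did not differ between groups by more than the tadpoles within them (exact permutation test, 2-sided, p = 0.587). Over the 20 pairs of tadpoles of the same group, the correlation of log2 CPM, counts scaled to one common library size, ran from 0.699 to 0.822, and no library was a copy of another, since counting error could not account for the differences in 62.5% or more of the genes of any pair that had 20 or more counts in it.

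In response to heat, depleted tadpoles changed 1074 of the 8477 genes of the table, a share of 12.7%, by the quasi-likelihood test of edgeR with TMM scaling (p adjusted after Benjamini and Hochberg, under 0.05). Such genes are called changed below. TMM (trimmed mean of M-values) sets the factors so that the bulk of the genes stays level. The calls were split almost evenly, with 542 genes higher (6.39% of those tested) and 532 lower (6.28%) in warm tadpoles. Changes were mostly of moderate size: the median gene that rose did so 2.13-fold and the median gene that fell did so 2.26-fold. For genes that rose, the log2 fold change was at least 0.49, and the middle 50% of them lay between 0.90 and 1.37. Genes that fell had sizes of at least 0.52, with the middle 50% between 0.95 and 1.48. A change of 2-fold or more (1 or more on the log2 scale) was found in 339 (62.5%) of the genes that rose and in 369 (69.4%) of those that fell. Most calls lay near the threshold: the smallest adjusted p by edgeR was 0.00243, and 53 genes had one under 0.01.

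Larger changes were few. Of the called genes, 1051 (97.9%) were counted in all 10 tadpoles, and among these 22 rose and 41 fell by 2 or more on the log2 scale. At 3 or more, 17 genes rose and 18 fell, of which 9 and 13 had a count of 0 in at least 1 tadpole. Of all called genes, 12 had a count of 0 in all 5 warm tadpoles and 6 in all 5 cool ones. The fitted fold change of such a gene depends on a small count that the fit adds and is no measure of its size. Among called genes counted in every tadpole, the largest rise was 7.03 and the largest fall 4.57 on the log2 scale. There were 4 genes with counts in all 5 cool tadpoles and in none of the warm ones, whose means in cool tadpoles ran from 2.21 to 66.1 normalized CPM, and 1 gene with the opposite pattern and a mean of 159.1 in warm tadpoles, and all 5 were called. Genes with a 0 in some library were seldom called (1.29%, against 15.7% of genes counted in all 10 tadpoles).

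The make-up of the libraries itself differed between warm and cool tadpoles. The 100 most abundant genes of a library took up 65.5% ± 3.93 of its counts (SD, n = 5) in cool and 57.2% ± 3.37 in warm depleted tadpoles (exact permutation test, 2-sided, p = 0.0159, adjusted p = 0.0204 over 9 measures). The cool tadpoles D2201, D2203, D2202, D2206 and D2209 had 69.0%, 67.7%, 67.2%, 64.3% and 59.2%, and the warm tadpoles D3202, D3206, D3205, D3203 and D3207 had 62.8%, 57.1%, 56.3%, 55.5% and 54.1%. The groups thus overlapped through D2209 and D3202 alone. Cool tadpoles needed 36 to 58 genes to reach 50% of their counts, and warm ones 49 to 78 (exact permutation test, 2-sided, p = 0.0159). The gene with the highest mean share over all 10 tadpoles, gene-AB205_0049210, is also described by itself below. It took 6.70% to 13.2% of the counts in cool and 4.34% to 5.89% in warm tadpoles, with no overlap (exact permutation test, 2-sided, p = 0.00794, the smallest that 5 against 5 tadpoles can give). The number of genes at 0 counts did not follow the groups, at 642 to 850 in cool and 535 to 1002 in warm tadpoles (exact permutation test, 2-sided, p = 0.865). With any 1 tadpole left out, the difference in the share of the 100 most abundant genes stayed between −9.92 and −7.45 percentage points, and its exact permutation p was at most 0.0317.

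**Figure D1:**
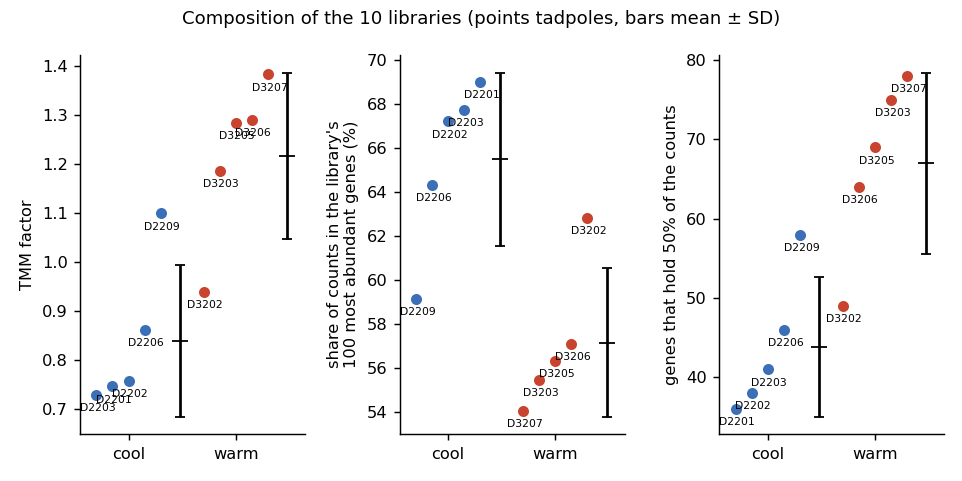
Composition of the 10 libraries: the TMM factor (no unit), the percentage of counts in the 100 most abundant genes of a library, and the number of genes that hold 50% of the counts, with 1 point per tadpole and bars of mean ± SD (n = 5). Warm tadpoles had higher factors, lower shares (57.2% against 65.5%) and more genes, and D2209 and D3202 lay nearest the other group.

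The TMM factors moved with this make-up. They were 0.730, 0.746, 0.758, 0.861 and 1.10 in the cool tadpoles D2203, D2201, D2202, D2206 and D2209, and 0.939, 1.19, 1.29, 1.29 and 1.38 in the warm tadpoles D3202, D3203, D3205, D3206 and D3207. The means of 0.839 ± 0.155 and 1.22 ± 0.170 (SD, n = 5) differed by more than the spread of tadpoles (exact permutation test, 2-sided, p = 0.0159, adjusted p = 0.0204). A factor above 1 means that the bulk of the genes held a larger share of that library than of the others. Without scaling by TMM, the median gene had 6.09 to 9.42 CPM in cool and 7.77 to 13.1 CPM in warm tadpoles, and after it 8.23 to 8.69 and 7.87 to 9.48 normalized CPM. In such bulk samples, fewer cells of a type and less RNA per cell cannot be told apart, and a fall of the abundant genes cannot be told apart from a rise of all others.

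The change of a gene varied with how abundant its reads were, and between 30 and 1000 CPM the sign of the median change turned with the scaling. The genes were put in 7 classes by their mean normalized CPM over the 10 tadpoles, which compares numbers of reads and not levels per transcript length. The 145 genes of at least 1000 CPM held 69.3% of the counts of cool and 60.1% of those of warm tadpoles on average. With TMM their median log2 fold change was −0.84, and 51 of them fell and 3 rose. The 232 genes between 300 and 1000 CPM had a median of −0.45, with 42 that fell and 10 that rose, but with total counts the median was 0.11, with 14 that fell and 22 that rose. In the 573 genes from 100 to 300 CPM, 76 fell and 33 rose with TMM, with a median of −0.09, and 19 fell and 107 rose with total counts, with a median of 0.43. From 30 to 100 CPM the directions were near balance with TMM, at 115 lower and 106 higher of 1341 genes. With total counts 277 of these rose and 24 fell. Below this level more genes rose than fell with TMM, with 177 against 115 of the 1932 genes from 10 to 30 CPM and 184 against 102 of the 2331 genes from 3 to 10 CPM, where the median log2 fold change was 0.12. The 1923 genes below 3 CPM were called least often, 29 higher and 31 lower (3.12%). In each of the 4 classes below 100 CPM, more genes rose than fell with total counts, with medians from 0.49 to 0.66.

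With TMM the share of genes called was larger in each higher class, from 12.3% between 3 and 10 CPM to 37.2% at 1000 CPM or more. With total counts it was 21.5% and 24.8% in these classes and between 15.5% and 24.7% in the 4 classes between them, with no such order. The median standard error of the log2 fold change was 0.74 below 3 CPM and between 0.29 and 0.34 in each of the 6 classes above (TMM). The difference between the medians of the genes of at least 1000 CPM and those of 3 to 10 CPM was −0.96 with TMM, and with any 1 tadpole left out it lay between −1.08 and −0.84 with TMM and between −1.12 and −0.82 with total counts. With total counts the median of the genes of at least 1000 CPM was −0.34, with 29 that fell and 7 that rose, and 40% of these genes lay above 0, against 24.1% with TMM. Since classes set by the depleted tadpoles share their values with the fold changes, the classes were also set by the mean CPM of the 10 colonized tadpoles, a choice made after the data had been seen. The 151 genes of at least 1000 CPM in colonized tadpoles had a median log2 fold change of −0.70 in depleted tadpoles, with 48 that fell and 3 that rose, with TMM, and a median of −0.13 with 29 that fell and 9 that rose with total counts. These 151 genes took up 63.3% to 72.4% of the counts in cool and 58.3% to 66.0% in warm depleted tadpoles (means 69.0% and 60.6%, exact permutation test, 2-sided, p = 0.0159, adjusted p = 0.0204).

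**Figure D2:**
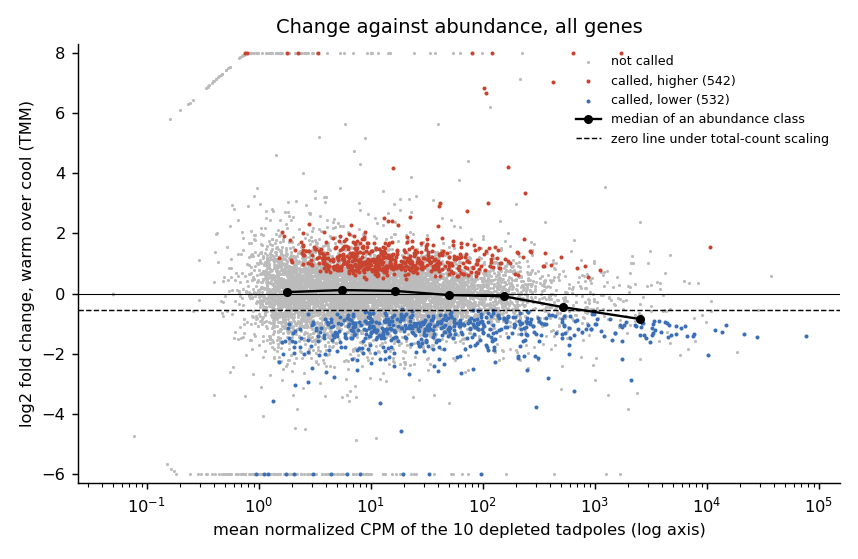
Log2 fold change of warm over cool depleted tadpoles (TMM) against mean normalized CPM on a log axis, 1 point per gene, with called genes in red (542 higher) and blue (532 lower), and values beyond the axis drawn at its ends. Black dots give the medians of the 7 abundance classes, which went from 0.12 at 3 to 10 CPM to −0.84 at 1000 CPM or more, and the dashed line is the level that total-count scaling takes as no change.

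The balance between genes that rose and fell depended on the scaling. Scaled by total counts, the calls numbered 1591 (18.8%). Warm tadpoles were higher in 1463 of them (17.3%) and lower in 128 (1.51%), so that 92.0% of the calls were higher, against 50.5% with TMM. The fold changes moved upwards together: their median over all genes was 0.57 on the log2 scale with total counts and 0.03 with TMM, and the shift per gene had a median of 0.54 and lay between 0.40 and 0.67 in the middle 90% of genes. As a result 1903 genes lay below 0 with TMM and above 0 with total counts. All 542 genes that were higher with TMM were also called higher with total counts. Of the 532 that were lower with TMM, 128 (24.1%) were also called lower with total counts, and the other 404 were not called, with a median log2 fold change of −1.07 that became −0.50. Total counts added 921 genes that were higher, whose median was 0.68 with TMM and 1.20 with total counts. No gene was called in opposite directions. An upward shift of nearly all genes favours rises over falls. The kept rises, the lost falls and the lack of opposite calls are thus no separate evidence on either direction.

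Of the other scalings, RLE size factors gave the most falls, with 498 genes higher and 566 lower, TMM with singleton pairing (TMMwsp) 555 and 500, and upper quartile factors 614 and 454. Leaving the 10 most abundant genes out of the total gave 1096 and 165, and leaving out the 100 most abundant gave 821 and 299, with medians of 0.48 and 0.28 for all genes. The median gene lay above 0 under all 7 scalings, from 0.01 with RLE size factors to 0.57 with total counts. Over all 7 scalings, 2034 genes were called at least once, 497 were higher and 127 were lower under every one of them, and no gene was called in opposite directions by any pair. Whether the bulk of the genes kept or raised its number of molecules was not measured.

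**Figure D3:**
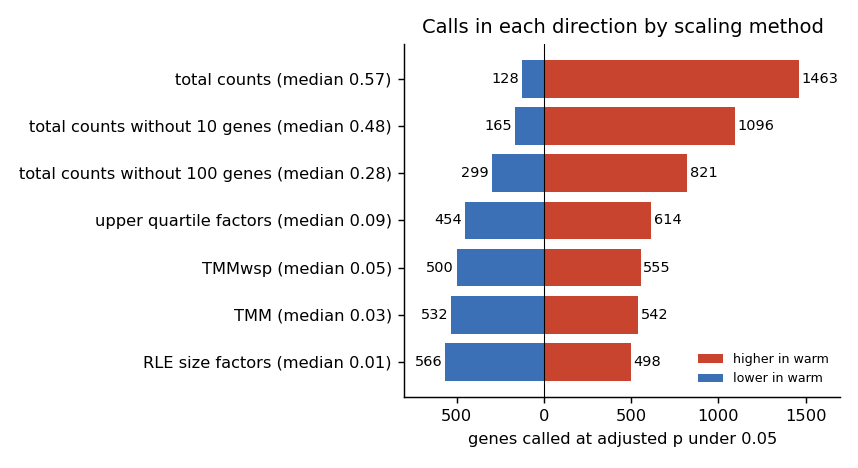
Number of genes called by edgeR under 7 scalings, higher in warm tadpoles to the right and lower to the left of 0, with the median over all genes of the log2 fold change in brackets. The split went from 498 higher and 566 lower with RLE size factors to 1463 and 128 with total counts.

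Genes whose values did not overlap between the 5 warm and the 5 cool tadpoles were counted, which gives the direction but not the size of a difference. With TMM there were 1072 such genes (12.6% of all 8477), 536 higher and 536 lower, and with total counts there were 1218 (14.4%), 1083 higher and 135 lower. The rank of each gene within its own library needs no scaling factor, and by ranks 1064 genes (12.6%) did not overlap, 605 higher and 459 lower. By all 3 measures, 443 genes were higher and 120 were lower without overlap. Among the called genes, 787 (73.3%) did not overlap with TMM. Counted over the 25 pairs of a warm and a cool tadpole, 523 of the 542 genes that rose were higher in the warm one in at least 23 pairs. Of the 532 that fell, 523 were not higher in the warm one in at least 23 pairs. Pairs of equal values, such as 0 and 0, thus counted for a fall but against a rise. How many falls strictly kept their direction was not counted, so the directions cannot be compared here. By this count, 4 genes that rose and 0 that fell had fewer than 20 such pairs. The called genes were picked from the same tadpoles, so the calling itself favours little overlap and a steady direction among them. The pairs were not counted over all genes. The median SD of log2 CPM within the groups was alike, at 0.49 in cool and 0.50 in warm tadpoles, and 52.6% of genes had the larger SD in warm tadpoles. It was 0.43 in warm tadpoles without D3203, 0.47 to 0.52 without any other 1 of them, and 0.46 to 0.48 without any 1 cool tadpole. The coefficient of variation between tadpoles that edgeR fits in common to all genes was 0.82 in cool and 0.90 in warm tadpoles. Whether the spread differed was not tested.

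The number of calls changed with the tadpoles in the fit. With any 1 tadpole left out, between 401 and 1290 genes were called. Each such fit also had 1 tadpole fewer, and what this alone took from the number of calls was not tested. The count fell by over 1.5 times without D2201 (427), D2202 (572), D2203 (431), D2206 (590), D3202 (618), D3205 (565) or D3207 (401), whereas it was 758 without D3206, 1126 without D3203 and 1290 without D2209. In each of the 10 fits, all 1074 genes kept the direction they had with all tadpoles, most of which these fits share. There were 336 genes (31.3%) that were called in each of the fits, 163 higher and 173 lower. Of these, 163 and 95 were also called with total counts. Every gene higher with TMM was also called higher with total counts, so the rises could not be lost in this step. With D2209 and D3203 left out together, a choice made after the data had been seen, 1468 genes were called, 744 higher and 724 lower.

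Each tadpole was then placed by genes that were called without it. The position of a gene in the left-out tadpole was set to 0 at the mean log2 CPM of the cool and to 1 at that of the warm tadpoles that remained. In the cool tadpoles D2203, D2201, D2202 and D2206 the median position was −0.13, −0.07, 0.09 and 0.09, and between 85.5% and 96.0% of the genes lay on the cool side of the midpoint. In D2209 it was 0.50 over 1290 genes, and 50.1% of these lay on the cool side, so that this tadpole stood between the groups. The warm tadpoles D3203, D3206, D3205, D3202 and D3207 had medians of 0.73, 0.81, 0.90, 0.93 and 1.04, with 66.6% of the genes on the warm side in D3203 and 79.9% to 92.5% in the other 4. In D2209, 41.9% of the genes lower and 58.0% of the genes higher in warm tadpoles lay on the cool side, and this difference was not tested. The median distance of D2209 to the mean of the other cool tadpoles was 0.50 on the log2 scale, and that to the mean of the warm tadpoles was 0.51, whereas in the other 4 cool tadpoles it was 0.39 to 0.47 and 0.70 to 0.81. The tadpole farthest from its own group was the warm D3203, at 0.61, and its distance to the mean of the cool tadpoles was 0.77. Without D2209, 1660 genes did not overlap between the groups, and without D3203 1568 did not, while leaving out any 1 of the other 8 tadpoles also raised the count, to at least 1147. Apart from small changes of the TMM factors, leaving a tadpole out can only add such genes. A rise by itself thus tells nothing about the tadpole. The library of D2209 also had the highest TMM factor (1.10) and the lowest share of the 100 most abundant genes (59.2%) of the cool tadpoles, and the part of these in its position was not tested.

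**Figure D4:**
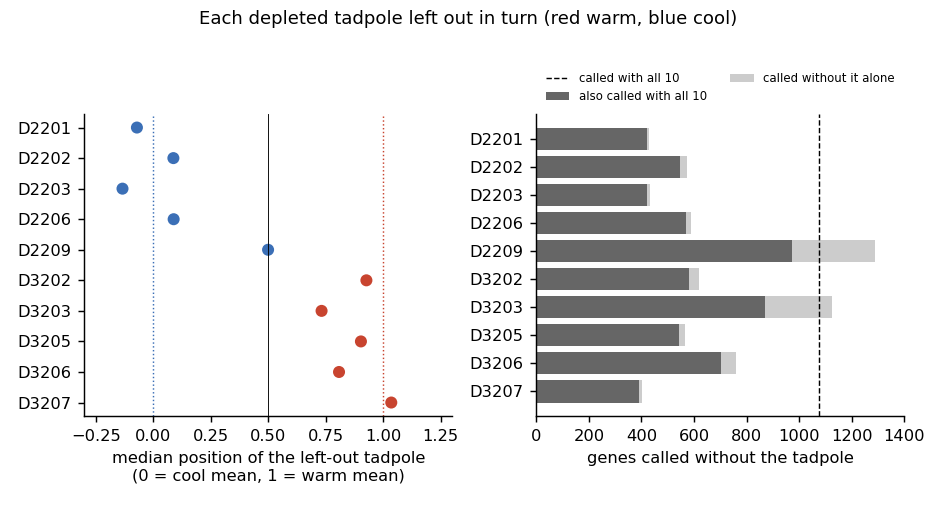
Left, the median position of each depleted tadpole over the genes called without it (0 is the mean of the remaining cool and 1 that of the remaining warm tadpoles). Right, the number of genes called without each tadpole, split by whether they were also called with all 10 (1074, dashed line). D2209 lay at 0.50, midway between the groups, and its removal gave the most calls (1290).

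The table gives no gene names, so 4 genes stand for the range of the response, chosen by a rule: among genes called and without overlap with both TMM and total counts (396 higher and 86 lower), the most abundant one in each direction and the one with the largest change that was counted in every tadpole. What these 4 genes encode is not given in the sources used here.

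The most abundant gene of the whole table, gene-AB205_0049210, whose shares of the counts were given above, fell. Its normalized CPM in the cool tadpoles D2202, D2201, D2203, D2206 and D2209 was 174042, 126137, 111609, 83157 and 60938, and in the warm tadpoles D3202, D3206, D3205, D3203 and D3207 it was 51173, 45677, 42506, 39507 and 31381. Every warm tadpole lay below every cool one, and D2209 was the lowest of the cool tadpoles. Its means of 111177 ± 43258 and 42049 ± 7364 (SD, n = 5) gave a log2 fold change of −1.40 with TMM (edgeR, standard error 0.28, adjusted p = 0.0178) and −0.82 with total counts (edgeR, standard error 0.20, adjusted p = 0.0220). With any 1 tadpole left out it lay between −1.54 and −1.18 with an adjusted p by edgeR of at most 0.0483. In CPM of the total counts, it had 36976 to 77032 in cool and 37946 to 55826 in warm colonized tadpoles, which overlapped.

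Among the genes called higher and without overlap with both TMM and total counts, gene-AB205_0016620 was the most abundant. It stood at rank 137 of all genes by mean normalized CPM. It had 602 to 1106 normalized CPM in cool tadpoles (602 in D2206, 741 in D2202, 754 in D2209, 887 in D2201 and 1106 in D2203) and 1204 to 1827 in warm ones (1204 in D3205, 1265 in D3206, 1339 in D3207, 1489 in D3203 and 1827 in D3202). The highest cool and the lowest warm tadpole thus lay close together, and D2209 was in the middle of its group. Its log2 fold change was 0.80 with TMM (edgeR, standard error 0.21, adjusted p = 0.0387) and 1.33 with total counts (edgeR, standard error 0.18, adjusted p = 0.00794). This call was a narrow one, since the adjusted p by edgeR ran from 0.0430 to 0.0808 with 1 tadpole left out and lay above 0.05 in 9 of these 10 fits. Over 14 alternatives to the test, the scaling, the filter, the block and the samples in the fit, it ran from 0.00255 to 0.346 and lay above 0.05 in 3. In CPM of the total counts, colonized tadpoles had 449.6 to 1200 of this gene when cool and 1235 to 1872 when warm, again with no overlap.

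The largest rise among called genes counted in every tadpole was that of gene-AB205_0034510. Its normalized CPM was 0.881 in D2202, 2.55 in D2203, 4.08 in D2209, 10.2 in D2201 and 14.4 in D2206, and it was 45.6 in D3205, 46.6 in D3206, 1075 in D3207, 1237 in D3203 and 1795 in D3202. Warm tadpoles fell into a pair near 46 and 3 tadpoles above 1000, and all lay above the cool ones. The log2 fold change was 7.03 (edgeR, standard error 1.38, adjusted p = 0.0170) and lay between 6.55 and 7.57 with 1 tadpole left out. The gene also varied widely among like-treated colonized tadpoles. In CPM of the total counts, the cool ones had 2440, 979, 289, 288 and 0, and the warm ones 1108, 600, 16.7, 7.10 and 2.28. These groups overlapped, and no rise in warm colonized tadpoles was seen.

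The largest fall among called genes counted in every tadpole was that of gene-AB205_0016440. Its normalized CPM went from 13.7 in D2201, 15.4 in D2206, 15.8 in D2202, 27.1 in D2203 and 105.4 in D2209 to 3.17 in D3203, 1.25 in D3202 and D3205, 1.01 in D3207 and 0.769 in D3206. The cool tadpole D2209 was the highest here, on the side away from the warm tadpoles. Its log2 fold change was −4.57 (edgeR, standard error 0.75, adjusted p = 0.0134), which became −3.57 at the nearest to 0 with 1 tadpole left out, with an adjusted p by edgeR of at most 0.0406. In colonized tadpoles it had 7.39 to 45.7 CPM of the total counts when cool and 0 to 7.96 when warm, and these groups overlapped.

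**Figure D5:**
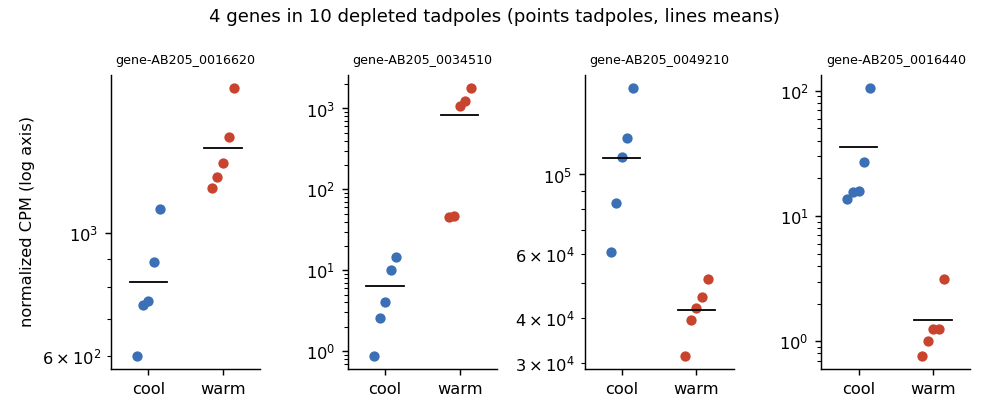
Normalized CPM (log axis) of the 4 genes in the 5 cool and the 5 warm depleted tadpoles, 1 point per tadpole, with lines at the means. In gene-AB205_0034510 the warm tadpoles lay at 45.6 to 1795 and the cool ones at 0.881 to 14.4, while in gene-AB205_0049210 all warm tadpoles lay below the cool ones.

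Whether depleted tadpoles responded otherwise than colonized ones was tested per gene as an interaction, with all 20 tadpoles fitted together. The quasi-likelihood test of edgeR called 0 genes (smallest adjusted p = 0.207), although 1097 (12.9%) had an unadjusted p under 0.05. DESeq2 called 432, the likelihood ratio test 24 and limma voom 0. With TMM, the genes at an unadjusted p under 0.05 made up 8.48% of those below 3 CPM and 35.9% of those of at least 1000 CPM, where the median of the interaction was −0.77 on the log2 scale with TMM and −0.30 with total counts. Over all genes the median of the interaction was 0.04 with TMM and 0.53 with total counts. The classes here were those set by the depleted tadpoles, whose values also enter the interaction and the fold changes of depleted tadpoles. In the separate fit of colonized tadpoles, 50 genes were called (0.59%) and the genes of at least 1000 CPM had a median log2 fold change of −0.17 with TMM, against −0.84 in depleted tadpoles. Total-count scaling shifted the log2 fold changes of single genes by a median of 0.03 in colonized and of 0.54 in depleted tadpoles. The share of the 100 most abundant genes was 58.3% ± 7.31 in cool and 57.5% ± 3.72 in warm colonized tadpoles (SD, n = 5), but its change in depleted tadpoles did not differ from this by more than reassigned tadpoles gave (exact permutation test, 2-sided, p = 0.113, adjusted p = 0.196 over 4 measures). The same test gave p = 0.0545 for TMM factors (exact permutation test, adjusted p = 0.196). These factors were set over all 20 libraries and differ from those given above, with means of 0.784 in cool and 1.14 in warm depleted tadpoles. Reassigning tadpoles mixes the groups, so the reassigned values also hold differences between groups other than that in the response. For this reason the 4 tests cannot decide whether the responses differed. Of the 542 genes that rose in depleted tadpoles, 466 (86.0%) lay above 0 on the log2 scale in colonized ones, with a median of 0.44, against 49.1% of all genes. Of the 532 that fell, 483 (90.8%) were below 0 there, with a median of −0.56.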

How the data were processed

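Gut RNA was sequenced from 20 tadpoles, 1 library each. The authors used Trim Galore for trimming, BWA for mapping to the bullfrog draft genome and StringTie for counting (versions not given in the sources used here), and deposited read counts per gene in whole numbers that were not normalized. They had removed transcripts of low abundance, and all 8477 genes of the table had at least 2 CPM in at least 3 libraries. Tadpoles were grouped by the animal codes. The members, the grouping by code and the gene rules were chosen with earlier results of these data known.

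The 5 warm and 5 cool depleted tadpoles were compared in a fit of their own with edgeR 4.0.16 (TMM, glmQLFit and glmQLFTest) in R 4.3.3. All 8477 genes were tested, p-values were adjusted after Benjamini and Hochberg, and the threshold was 0.05. The standard error was the size of a log2 fold change divided by the root of its F. CPM were normalized by TMM factors, and a prior count of 2 was added before logarithms. Measures with 1 value per library were compared by exact permutation of the 252 splits of 10 tadpoles. Scripts were tested on simulated data. Replicates are separate tadpoles. Alternatives were DESeq2 1.42.0, edgeR's exact and likelihood ratio tests, limma 3.58.1 (voom with quality weights), 6 other scalings, 2 filters, 3 thresholds, all 4 groups in one fit, the animal number as a block, the treatment fields as the grouping, and each tadpole left out. The genes named were, in each direction, the most abundant and the one with the largest log2 fold change counted in all 10 tadpoles, among genes called and not overlapping with TMM and total counts. Gene lists and cell type markers by name were not analysed, since no names were at hand. The colonized tadpoles entered only the interaction, the comparison with their own response, the second set of abundance classes and the values given for the named genes. Among the alternatives, they entered the fit of all 4 groups and, as the C32 tadpoles, the grouping by treatment fields.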

Additional observations from a re-analysis of the deposited data

Results flagged for a closer look

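In 42 sets of 5 tadpoles, the highest and the lowest tadpole were compared with the others, of which chance marks about 1 in 20. There were 4 sets with a tadpole far from the rest. In the cool tadpole D2209, 50.1% of the genes called without it lay on the cool side of the midpoint, and the next lowest cool tadpole had 85.5%. D2209 also had 105.4 normalized CPM of gene-AB205_0016440, and the next highest cool tadpole had 27.1. Among warm tadpoles, D3203 had 3.17 normalized CPM of the same gene and the next highest had 1.25. In D3202 the genes of at least 1000 CPM in colonized tadpoles took up 66.0% of the counts, and in the next highest warm tadpole 60.1%.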

How the results depend on the processing

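The 1074 genes called between warm and cool depleted tadpoles became 1947 with DESeq2 (939 higher and 1008 lower), 1682 with limma voom (852 and 830), 53 at an adjusted p under 0.01 (25 and 28, 47.2% higher), 708 with a minimum absolute log2 fold change of 1 (339 higher) and 48 when tested against a fold change of 1.5 by glmTreat (17 and 31, 35.4% higher). By scaling, the genes higher and lower were 1463 and 128 with total counts (92.0% higher), 1096 and 165 without the 10 most abundant genes (86.9%) and 821 and 299 without the 100 most abundant (73.3%), and the share that was higher was 46.8% with RLE and 57.5% with upper quartile factors. Over all genes, the log2 fold change had medians of 0.57, 0.48 and 0.28 with total counts, without 10 and without 100 genes. With 1 tadpole left out, 401 to 1290 genes were called, 192 to 653 higher and 209 to 637 lower (46.6% to 56.1% higher). In these fits 1147 to 1660 genes did not overlap, a count that leaving a tadpole out raises by itself. For the interaction 0 to 4 genes were called in them, against 24 with the likelihood ratio test and 432 with DESeq2. Grouped by the treatment fields, 0 genes were called, 0 higher and 0 lower, 127 did not overlap, and the log2 fold change of gene-AB205_0049210 was 0.059 (adjusted p = 0.986 by edgeR, against 2.89e-05 to 0.312 over 14 other alternatives), since other tadpoles are then compared. The cause of the other differences was not tested.

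The animal numbers 2, 3 and 6 occur in both groups. With the number as a replicate block, 0 genes were called by the quasi-likelihood test (1274 at an unadjusted p under 0.05, 499 by the likelihood ratio test and 995 by DESeq2), a fit in which only these 3 pairs inform the comparison. Deviations of same-numbered tadpoles from their group means correlated at 0.03, −0.01 and −0.03 over all genes. Whether the number pairs the tadpoles in some of the genes was not tested. With 5 tadpoles in a group, genes below 3 CPM were measured with a median standard error of 0.74, and small changes there were not detectable.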
